A study of Mus musculus with 11 samples.

Results

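The genes of renal gluconeogenesis G6pc, Slc37a4, Fbp1, Pck1, Pck2, Pcx, Khk and Ppargc1a were followed across 11 arrays of mouse kidney at embryonic day 17. They are 8 of 18193 measured genes and were chosen by name, for their known part in making glucose or handling fructose. All 8 had a probe set, and no gene was lost to a filter on low values. Each array held labelled cRNA of 1 sample on an Affymetrix 3' expression array. The sources name 7 samples as Robo2 homozygous and 4 as wild-type kidneys. By title, the arrays comprised 1 R2E17 homozygous array (replicate 6), 3 R2NB homozygous arrays (replicates 3, 4 and 5) and 1 R2E17 wild-type array (replicate 3), and then 3 E17R2 homozygous arrays (replicates 2, 8 and 9) and 3 E17R2 wild-type arrays (replicates 1, 3 and 7). All carry the same age in their tissue label. The nature of the Robo2 allele, the strain and what NB stands for are not stated in the labels or files used here. Some free-text labels speak of human brain, against the organism, source and tissue labels, which were followed.

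Gluconeogenesis turns lactate, glutamine, glycerol and amino acids into glucose, and in the body it is carried out mainly by the liver and by the proximal tubule of the kidney. Pyruvate carboxylase and phosphoenolpyruvate carboxykinase open the route, fructose bisphosphatase reverses a step of glycolysis, and glucose-6-phosphatase in the endoplasmic reticulum releases free glucose. In rodent liver, Pck1 transcription starts around birth.

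The deposited intensities fell into a set of 5 arrays (R2E17 and R2NB) with median intensities of 46.8 to 53.2 and a set of 6 arrays (E17R2) with medians of 23.4 to 24.5. The sets were taken to have been normalized apart, which the sources do not state. Levels are therefore given as log2 intensity minus the median of the array, and no test was made of the difference in level between the sets. Set, title series and normalization cannot be told apart. A level of 0 is that of the median probe set, and levels of different genes are not compared because probe sets differ in brightness. Robo2, the gene named in the genotype, had levels of -2.55, -2.21 and -2.29 on the E17R2 homozygous arrays, against -1.46, -0.87 and -1.46 on the E17R2 wild-type arrays. The homozygous arrays were all lower, a difference of -1.09 ± 0.18 (SE, limma adjusted p = 0.867). In the set of 5, Robo2 was -2.26 on the R2E17 homozygous array and -2.27, -1.85 and -1.75 on the R2NB homozygous arrays, against -1.77 on the R2E17 wild-type array. R2NB replicate 5 was thus not below the wild-type array, and replicate 4 was below it by little, so the Robo2 level does not set these 2 R2NB arrays, called homozygous here by their label alone, apart from the wild-type array. Where its probe set lies relative to the changed allele is not stated. Of 21 measured proximal tubule genes, 19 lay above the array median on all 11 arrays. Of 8 brain genes, 1 did so and 3 lay below it on all arrays. Some arrays stood apart. The R2E17 wild-type array had the largest 3' minus 5' differences of the control probe sets, 0.70 for Gapdh and 1.12 for Actb, whereas the other arrays reached at most 0.22 and 0.75. E17R2 homozygous replicate 9 had a summed linear level of 1375 for 7 smooth muscle genes, while the other 10 arrays had 150 to 275. Alb, which encodes albumin, was high on R2NB homozygous replicate 4 (8.06), E17R2 homozygous replicate 2 (6.87) and E17R2 wild-type replicate 7 (8.01).

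Of the 8 genes, 5 were higher in the set of 5 arrays than in the set of 6. G6pc was higher by 4.02 on the log2 scale, Pck1 by 3.69, Fbp1 by 2.33, Pcx by 1.64 and Slc37a4 by 1.08. On these genes every array of the set of 5 lay above every array of the set of 6. Such separation with a difference of 1 log2 unit or more, called higher here, was met by 5 of the 8 members and by 482 of all 18193 genes (2.65%). In the lower direction it was met by 0 members and by 463 genes (2.54%). The median difference was 1.36 over the members and -0.06 over all genes. Khk, Ppargc1a and Pck2 did not meet it.

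**Figure D1:**
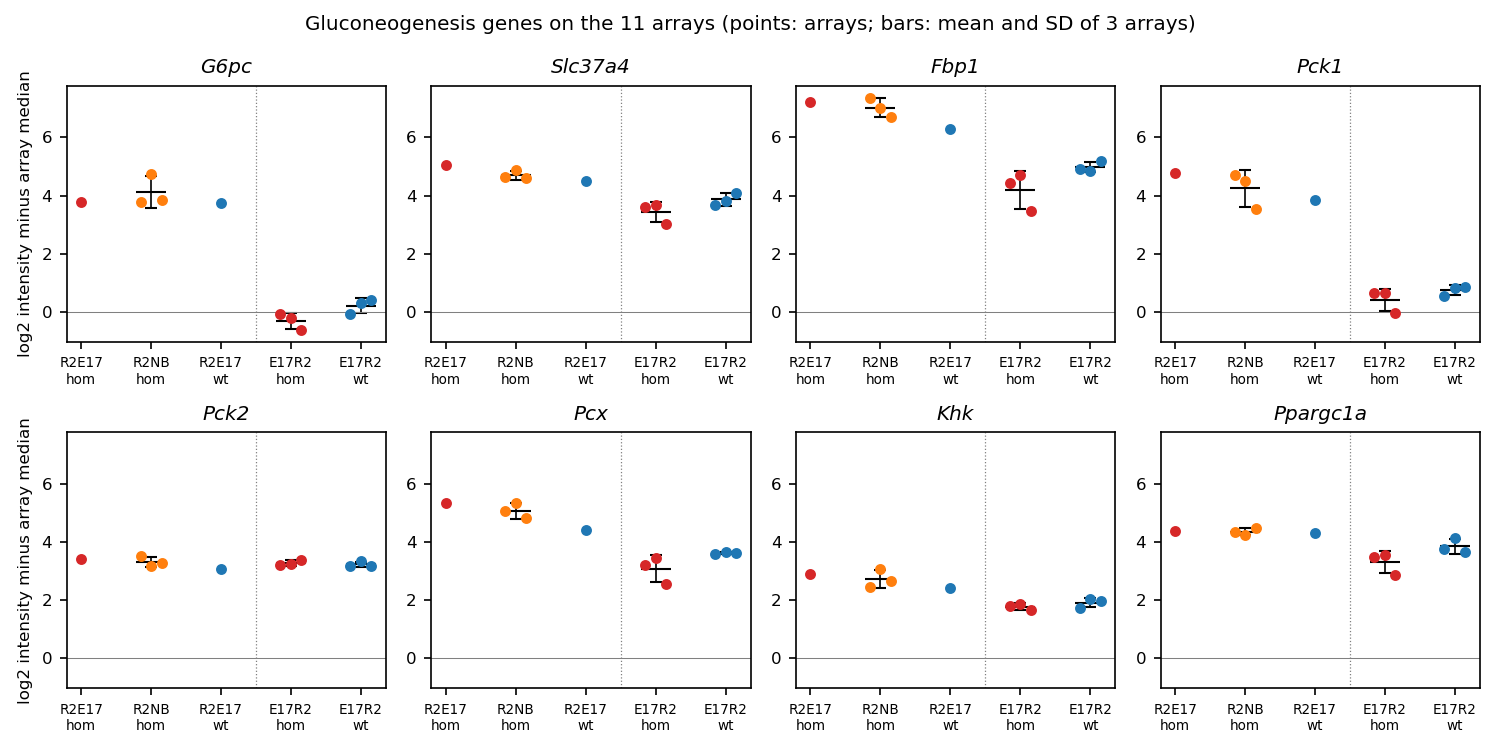
Level of each of the 8 genes (y axis, log2 intensity minus array median) on the 11 arrays, with 1 point per array; the 5 columns on the x axis are the R2E17 homozygous, R2NB homozygous, R2E17 wild-type, E17R2 homozygous and E17R2 wild-type arrays, and bars give the mean and SD where a column has 3 arrays. The dotted line parts the set of 5 arrays (left) from the set of 6 (right), which overlap for Pck2 and for no other gene.

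G6pc encodes the catalytic subunit of glucose-6-phosphatase, the last enzyme of the route. Its level was 3.77 on the R2E17 homozygous array, 3.76, 4.74 and 3.85 on the R2NB homozygous arrays and 3.73 on the R2E17 wild-type array. On the E17R2 arrays it was -0.08, -0.22 and -0.63 in homozygous and -0.09, 0.31 and 0.40 in wild-type kidneys. In rank terms, G6pc stood between the 86.0th and 93.8th percentile of its array in the set of 5, against the 41.1st to 55.0th percentile in the set of 6. The lowest array of the set of 5 was 3.33 above the highest of the set of 6. The difference of the set means, 16.3-fold on the linear scale, ranked number 3 among the positive differences of all genes. Slc37a4, which carries glucose phosphate into the endoplasmic reticulum, had 5.04 on the R2E17 homozygous array, 4.63, 4.88 and 4.60 on the R2NB homozygous arrays and 4.51 on the R2E17 wild-type array. It had 3.59, 3.69 and 3.03 on the E17R2 homozygous arrays and 3.68, 3.81 and 4.10 on the E17R2 wild-type arrays. It was thus well above the array median everywhere, and its difference was 2.12-fold. The difference was just over the limit of 1. It was 0.99 after quantile normalization over all arrays and 0.96 without E17R2 homozygous replicate 9, and Slc37a4 then lost its call.

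Fbp1 encodes the fructose bisphosphatase of liver and kidney. Its level was 7.21 on the R2E17 homozygous array, 7.37, 7.02 and 6.69 on the R2NB homozygous arrays and 6.28 on the R2E17 wild-type array, against 4.42, 4.70 and 3.47 on the E17R2 homozygous arrays and 4.92, 4.86 and 5.17 on the E17R2 wild-type arrays. The sets were parted by 1.11, and the difference of their means was 5.01-fold (rank 35 of all genes). Fbp1 was far above the array median in the set of 6 too, at the 86.3rd to 96.0th percentile of those arrays.

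Pck1 encodes the cytosolic phosphoenolpyruvate carboxykinase. It had a level of 4.77 on the R2E17 homozygous array, 4.70, 4.49 and 3.53 on the R2NB homozygous arrays and 3.85 on the R2E17 wild-type array. On the E17R2 arrays the level was 0.63, 0.65 and -0.02 in homozygous and 0.55, 0.82 and 0.86 in wild-type kidneys. The difference was 12.9-fold, next after G6pc (rank 4), and the sets were parted by 2.67. Pck2 encodes the mitochondrial form of the same enzyme. It had 3.41 on the R2E17 homozygous array, 3.51, 3.16 and 3.28 on the R2NB homozygous arrays and 3.06 on the R2E17 wild-type array, against 3.20, 3.24 and 3.38 on the E17R2 homozygous arrays and 3.18, 3.34 and 3.17 on the E17R2 wild-type arrays. For Pck2 the sets overlapped, and their means, 3.29 ± 0.18 in the set of 5 and 3.25 ± 0.09 in the set of 6 (SD), differed by 0.03. The 2 forms of this enzyme therefore stood apart in their differences, 3.69 for Pck1 and 0.03 for Pck2.

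Pcx encodes pyruvate carboxylase, the mitochondrial enzyme that makes oxaloacetate from pyruvate. It had levels of 5.35 on the R2E17 homozygous array, 5.05, 5.35 and 4.81 on the R2NB homozygous arrays and 4.40 on the R2E17 wild-type array, against 3.22, 3.46 and 2.56 on the E17R2 homozygous arrays and 3.57, 3.66 and 3.62 on the E17R2 wild-type arrays. The sets did not overlap, and the difference was 3.13-fold (rank 135).

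Khk encodes ketohexokinase, which phosphorylates fructose. Its level was 2.90 on the R2E17 homozygous array, 2.46, 3.08 and 2.66 on the R2NB homozygous arrays and 2.40 on the R2E17 wild-type array, against 1.81, 1.88 and 1.65 on the E17R2 homozygous arrays and 1.74, 2.04 and 1.97 on the E17R2 wild-type arrays. Here too the sets did not overlap, but the difference of 0.85 was under the limit. Ppargc1a encodes a coactivator that in liver raises transcription of Pck1 and G6pc. It had 4.38 on the R2E17 homozygous array, 4.35, 4.24 and 4.48 on the R2NB homozygous arrays and 4.30 on the R2E17 wild-type array, against 3.48, 3.55 and 2.88 on the E17R2 homozygous arrays and 3.76, 4.15 and 3.67 on the E17R2 wild-type arrays. The lowest array of the set of 5 was only 0.09 above E17R2 wild-type replicate 3, the highest of the set of 6, and the difference was 0.77. Among the homozygous arrays alone the difference was 0.99 for Khk and 1.06 for Ppargc1a. There 6 members met the call for higher, as did 693 of all 18193 genes.

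**Figure D2:**
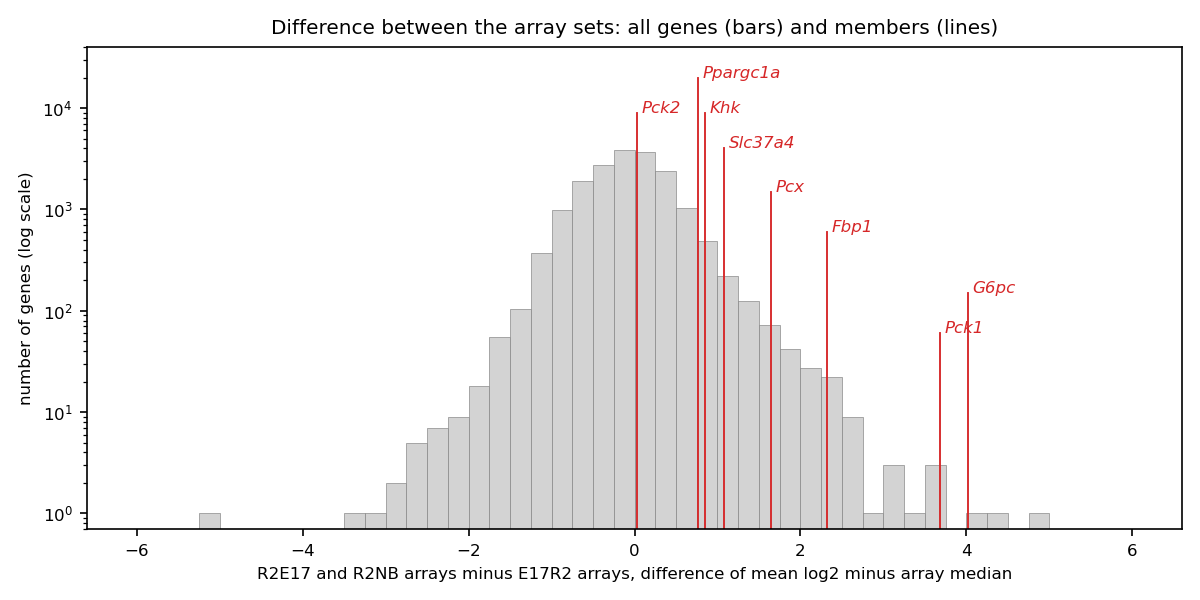
Histogram of the difference between the R2E17 and R2NB arrays and the E17R2 arrays (x axis, log2) over 18193 genes (y axis, number of genes on a log scale), with a red line at each of the 8 genes. G6pc (4.02) and Pck1 (3.69) lie at the right edge, while Pck2 (0.03) lies in the middle of all genes.

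The promoters of the 3 members with the largest differences are shown as RefSeq sequence on GRCm38.p6. They run from 250 bases before to 50 bases after the annotated start. Capitals mark matches, on either strand, to the TATA box TATAAA, the HNF1 core GTTAAT and the shortened cyclic AMP response element ACGTCA. The G6pc window is chr11:101367466-101367765 on the plus strand, that of Pck1 is chr2:173152823-173153122 on the plus strand, and that of Fbp1 is chr13:62888233-62888532 on the minus strand.
G6pc: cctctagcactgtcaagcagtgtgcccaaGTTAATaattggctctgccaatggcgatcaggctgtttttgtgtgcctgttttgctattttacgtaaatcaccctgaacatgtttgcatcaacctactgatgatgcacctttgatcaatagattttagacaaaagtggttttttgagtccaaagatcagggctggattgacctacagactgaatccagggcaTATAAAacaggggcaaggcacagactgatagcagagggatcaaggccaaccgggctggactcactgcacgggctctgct
Pck1: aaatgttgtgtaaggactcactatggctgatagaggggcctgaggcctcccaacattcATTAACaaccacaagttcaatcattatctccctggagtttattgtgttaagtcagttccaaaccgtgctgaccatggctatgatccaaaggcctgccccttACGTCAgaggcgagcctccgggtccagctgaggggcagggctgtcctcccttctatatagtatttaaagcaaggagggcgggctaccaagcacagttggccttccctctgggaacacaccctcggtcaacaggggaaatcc
Fbp1: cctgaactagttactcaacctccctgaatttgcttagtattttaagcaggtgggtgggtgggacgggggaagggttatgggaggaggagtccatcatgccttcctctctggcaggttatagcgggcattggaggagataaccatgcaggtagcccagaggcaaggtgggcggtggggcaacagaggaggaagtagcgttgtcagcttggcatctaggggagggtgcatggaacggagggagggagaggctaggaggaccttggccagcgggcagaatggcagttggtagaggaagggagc
The G6pc promoter held GTTAAT at position -221 and TATAAA at position -29 relative to the start. The Pck1 promoter held the HNF1 core on the reverse strand at position -192 and ACGTCA at position -91. Members without a call also held matches, GTTAAT at position -60 in Khk and ACGTCA at position -50 in Ppargc1a. Of the 3 windows of Slc37a4, 2 that overlap held ACGTCA at the same genomic site, and 1 held TATAAA. None of the searched motifs was found in the windows of Fbp1, Pcx and Pck2. Of 32851 RefSeq promoter windows of this length, 13.6% held TATAAA, 7.10% GTTAAT and 7.51% ACGTCA. The full element TGACGTCA, of which ACGTCA is part, was held by 1.79% and the HNF4 site CAAAGTCCA by 0.475%, and neither was found in a member's window. A match describes the letters only, and its bearing on the levels was not tested.

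Different probe sets of a gene did not all show the same difference between the sets. For Pck1, the brightest probe set differed by 3.69, a second (with levels of -2.14 to 0.56) by 1.22 and the dimmest (-3.25 to -2.77) by -0.19. The 2 probe sets of Pck2 differed by 0.03 and 0.25. The 5 of Ppargc1a differed by 0.77, 0.68, 0.39, -0.12 and -0.26, so its direction depended on the probe set. For Pcx, the array also carries control probe sets along the transcript, and these differed by 1.73 at the 3' end, by 1.20 and -0.07 in the middle parts and by 0.27 at the 5' end. Their levels were 2.74 to 5.51 at the 3' end, -0.88 to 1.34 in the middle parts and -0.91 to -0.01 at the 5' end, so all but the first were dim. The mean of the probe sets gave a difference of 1.57 for Pck1 and 0.29 for Ppargc1a. G6pc, Fbp1, Khk and Slc37a4 had 1 probe set each.

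The proximal tubule, the segment that makes glucose, also showed higher levels of its markers in the set of 5. Of 21 measured tubule genes, 16 met the call for higher and 0 that for lower (all genes, 2.65% and 2.54%), with a median difference of 1.61. The other nephron cells showed this too, with 5 of 9 measured genes higher and 0 lower and a median of 1.02, among them the thick limb gene Umod (2.65) and the distal tubule transporter Slc12a3 (2.48). In the tubule list were the lactate transporter Slc5a12 (2.65), the inositol oxygenase Miox (2.57) and the creatine enzyme Gatm (2.53). The median level of the tubule list was 4.53 to 5.18 on the arrays of the set of 5, against 2.0 to 3.35 on those of the set of 6, with the lowest value on E17R2 homozygous replicate 9. The means of these per-array medians differed by 2.03, which is more than the median of the single genes' differences, 1.61. In bulk tissue, fewer tubule cells and less RNA per cell cannot be told apart. Levels were therefore also taken relative to the list's median on the same array. By that measure G6pc was still higher in the set of 5, by 1.99, and Pck1 by 1.65. G6pc ran from -1.42 to -0.43 in the set of 5 and from -3.31 to -2.63 in the set of 6. Pck1 ran from -1.31 to -0.35 in the set of 5 and from -2.61 to -2.03 in the set of 6. On the brightest probe set of each, these 2 genes thus differed by more than the tubule list as a whole. For Pck1 this depends on the probe set, since the mean of its probe sets differed by 1.57, which is not above 1.61. Fbp1 differed from the list by 0.29, with overlap. Pcx (-0.39), Slc37a4 (-0.95), Khk (-1.18), Ppargc1a (-1.26) and Pck2 (-2.0) were lower relative to it, without overlap. The list median itself differed by 2.03, against a median difference of -0.06 over all genes. A gene with little difference of its own, such as Pck2 (0.03), therefore falls lower by this measure. The share of all genes that do so was not computed. For Pcx the direction depends on the summary, since its own difference of 1.64 is not below 1.61.

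**Figure D3:**
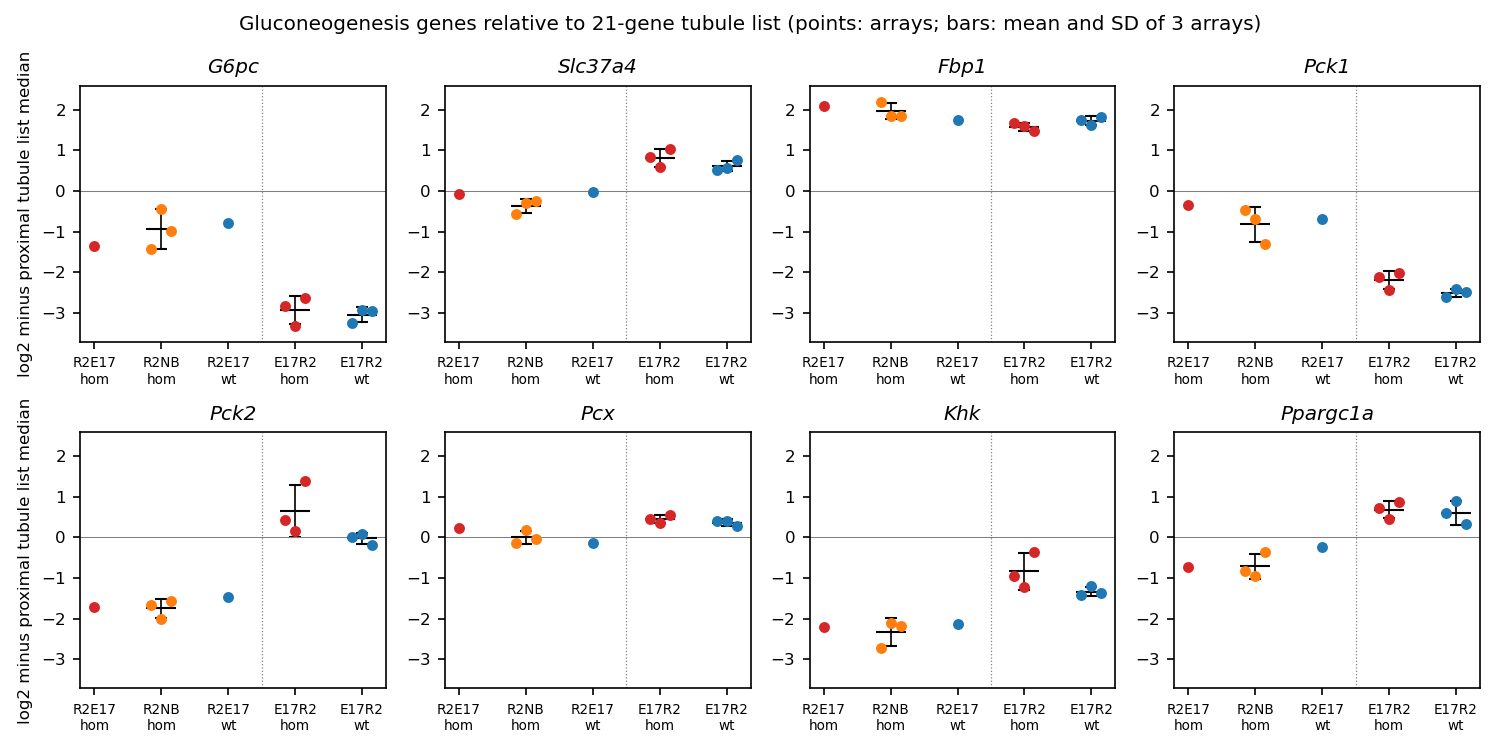
Level of each of the 8 genes minus the median of 21 proximal tubule genes on the same array (y axis, log2), with columns, points and bars for the same arrays as in the plot of levels. G6pc and Pck1 remain higher in the set of 5 arrays (left of the dotted line), Fbp1 overlaps, and Slc37a4, Pck2, Pcx, Khk and Ppargc1a lie lower there than in the set of 6.

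Genes around the route were also among those called. Over all genes, 2.65% met the call for higher and 2.54% that for lower. In the list of glucose and fructose partners, 2 of 9 measured genes were higher and 0 lower, with a median of 0.70. These were the fructose transporter Slc2a5 (1.39) and the triokinase Tkfc (1.16). The glucose transporter Slc2a2, through which glucose leaves the tubule cell, differed by 0.92, and G6pc3, the more widely expressed phosphatase, by 0.36. Of 18 genes of substrate supply, 5 were higher and 0 lower, with a median of 0.66. They were the amino acid transporter subunit Slc7a7 (2.62), the monocarboxylate transporters Slc5a8 (1.40) and Slc16a7 (1.29), the kinase Pdk2 (1.23), which restrains pyruvate dehydrogenase, and the dicarboxylate carrier Slc25a10 (1.04). Pdk4 differed by 1.27, but its arrays overlapped.

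Glycolysis genes differed little. Of 18 measured, 0 were higher and 1 was lower (all genes, 2.65% and 2.54%). The lower one was the hexokinase Hk2 (-1.27), and the median difference was 0.08. Among 24 regulators of gluconeogenesis, 0 met either call and the median was 0.09. The largest differences were those of the nuclear receptors Hnf4a (0.87) and Esrra (0.85), the parathyroid hormone receptor Pth1r (0.81) and the kinase-like protein Trib3 (-0.67).

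Liver also makes glucose, so hepatocyte genes were measured on every array. Of 13 hepatocyte genes, 0 met either call and the median difference was -0.52, with 4 above the array median on all arrays and 2, Tat and Tdo2, below it on all. Their summed linear level was 136 on the R2E17 homozygous array, 103 to 894 on the R2NB homozygous arrays and 97.1 on the R2E17 wild-type array. On the E17R2 arrays it was 80.8 to 304 in homozygous and 98.6 to 603 in wild-type kidneys. Alb was -0.02 on the R2E17 homozygous array and 0.73 on R2NB homozygous replicate 3, where G6pc was 3.77 and 3.76. Not all hepatocyte genes were low on these arrays, since Afp was 5.85 and 5.99 there and Ttr 6.14 and 6.28. Ttr differed between the sets by 1.41, with overlap. On E17R2 wild-type replicate 7 Alb was 8.01 and G6pc 0.40. The highest G6pc level, 4.74, was that of R2NB homozygous replicate 4, where Alb was 8.06 and the urea cycle gene Cps1 was 4.80. Without the 3 arrays with the highest Alb, an alternative chosen after seeing the data, G6pc differed by 3.94, Pck1 by 3.71 and Fbp1 by 2.40. The same number of members, 5, met the call for higher, as did 503 of all 18193 genes. Of 7 adipose genes, which mark another tissue that uses Pck1, 0 met either call and 5 were below the array median on all arrays, Adipoq and Cidec among them. Fabp4 of this list was above the array median on all arrays, at 6.19 to 7.10. Of 7 intestinal genes, 2 were higher and 1 was lower (all genes, 2.65% and 2.54%). The higher ones were Apoa4 (1.35) and Vil1 (1.28), the second of which tubule cells also use. The lower one was Fabp2 (-1.08). Apoa4 was 2.35 on R2NB homozygous replicate 4 and -0.15 to 0.16 on the other arrays of the set of 5. Without that replicate, left out after seeing the data, its difference was 0.89, under the limit of 1.

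**Figure D4:**
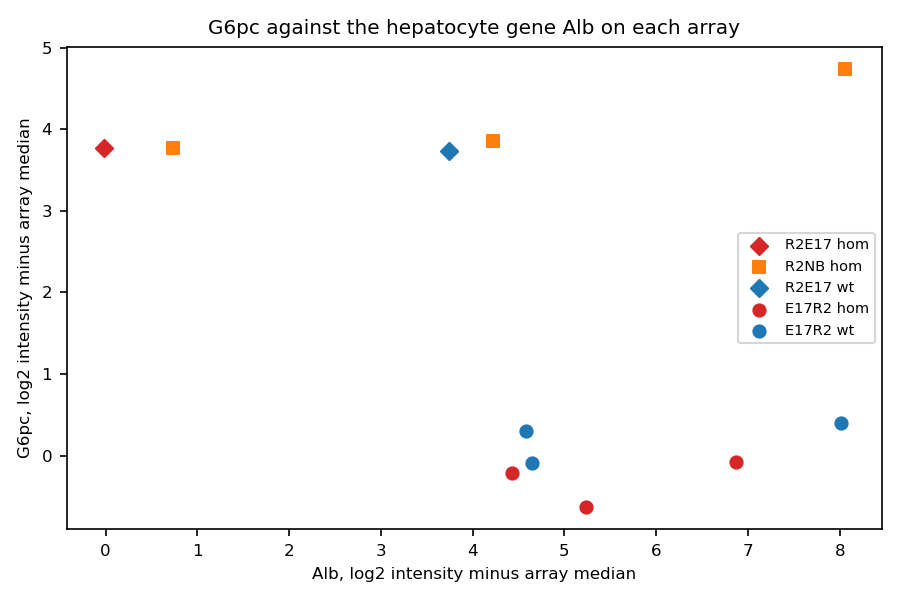
G6pc (y axis) against the hepatocyte gene Alb (x axis), both as log2 intensity minus array median, with 1 point for each of the 11 arrays; colour and shape give title series and genotype. The arrays of the set of 5 lie between 3.73 and 4.74 for G6pc over the whole range of Alb, and those of the set of 6 between -0.63 and 0.40.

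The comparison of homozygous with wild-type kidneys was made within the E17R2 arrays, 3 against 3. Nothing says that replicates were separate animals, so the p-values reflect nothing beyond the spread among these arrays, and that spread may be technical. No member passed the threshold of an adjusted p of 0.05, and neither did any of the 18193 genes (0 genes, 0.0%, limma with Benjamini-Hochberg adjustment). Without adjustment 984 genes had a p under 0.05, with 4 members among them. Of the 8 members, 7 had lower means in homozygous kidneys, as did 10213 of all genes. The median difference was -0.47 for the members, against -0.02 for all genes.

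Fbp1 averaged 4.20 ± 0.65 in E17R2 homozygous and 4.98 ± 0.17 in E17R2 wild-type kidneys (SD, n = 3 each), a difference of -0.79 ± 0.30 (SE, 95% interval -1.50 to -0.07, limma adjusted p = 0.867). Pcx averaged 3.08 ± 0.47 in homozygous and 3.62 ± 0.04 in wild-type kidneys, a difference of -0.54 ± 0.22 (limma adjusted p = 0.867). Ppargc1a averaged 3.30 ± 0.37 in homozygous and 3.86 ± 0.26 in wild-type kidneys, a difference of -0.55 ± 0.21 (limma adjusted p = 0.867). For these 3 members every homozygous array lay below every wild-type array, which also held for 7.14% of all genes. All 3 homozygous arrays lay above the wild-type arrays for 0 members and 4.85% of genes. The groups of the other 5 members overlapped. Their differences were -0.52 ± 0.19 for G6pc, -0.43 ± 0.20 for Slc37a4, -0.32 ± 0.20 for Pck1, -0.13 ± 0.12 for Khk and 0.05 ± 0.10 for Pck2.

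E17R2 homozygous replicate 9 was the lowest of the 6 arrays for 7 members and the highest for Pck2. Without it the differences were -0.42 for Fbp1, -0.28 for Pcx, -0.34 for Ppargc1a, -0.36 for G6pc and -0.10 for Pck1, and 0 members passed in limma. The proximal tubule list was also lower on the homozygous arrays. Of its 21 genes, 20 had lower means in homozygous kidneys and 0 passed, and the list's median level differed by -0.63. Relative to that median on the same array, the members' differences ran from -0.15 for Fbp1 to 0.68 for Pck2. Homozygous and wild-type arrays overlapped for every member but Pck2. Pck2 itself differed by 0.05, so by this measure it mostly carries the list's difference with the sign turned. Other lists were lower on the homozygous arrays as well. All 9 genes of other nephron cells had lower means in homozygous kidneys (median -0.61, 0 passed), as did all 7 adrenal genes (median -1.28, 0 passed). The summed linear level of the adrenal genes was 6.99 to 43.0 on the homozygous arrays and 9.17 to 143 on the wild-type arrays. The steroid enzyme gene Cyp11b1 was 0.18, -0.96 and -0.97 on the homozygous arrays and 5.28, 4.89 and -0.53 on the wild-type arrays. Other adrenal genes were high on homozygous replicate 2 as well. Cyp11a1 was 3.29, -0.64 and -0.85 on the homozygous arrays and 3.44, 3.19 and -1.22 on the wild-type arrays. Hsd3b1 was 4.32, 0.19 and -1.01 on the homozygous arrays and 5.99, 5.83 and 0.83 on the wild-type arrays. The part of these lists and of the smooth muscle genes in the members' values was not tested.

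The R2E17 pair had 1 array of each genotype, so its differences have no replicate check. All 8 members were higher on the homozygous array than on the wild-type array, by 0.95 for Pcx, 0.92 for Fbp1, 0.92 for Pck1, 0.53 for Slc37a4, 0.50 for Khk, 0.35 for Pck2, 0.08 for Ppargc1a and 0.04 for G6pc. None differed by 1 log2 unit or more, a size that 1.86% of all genes reached in the higher and 0.577% in the lower direction. The probe sets of Ppargc1a differed by 0.08, 0.14, 0.04, -0.27 and -0.36 in the pair, so its direction depended on the probe set. The tubule list's median level was 5.11 on the homozygous and 4.53 on the wild-type array, a difference of 0.59. The wild-type array of this pair is the one with the largest 3' minus 5' differences for Gapdh and Actb. On it, the second Pck1 probe set had -2.14, against 0.53 on the homozygous array, and a middle Pcx control probe set had -0.88, against 1.31 on the homozygous array. Muscle genes differed more than any member between these 2 arrays. The 9 skeletal and heart muscle genes had a median difference of 4.22 and a summed linear level of 202 on the homozygous array and 8.93 on the wild-type array, with Myl1 at 5.46 on the homozygous and 0.03 on the wild-type array. The part of RNA quality and of muscle transcripts in the pair's values was not tested.

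On the brightest probe set of each gene, the direction of the genotype difference thus was not the same in the 2 title series for 7 of the members. The difference between them (R2E17 minus E17R2) was tested with an interaction term over 8 arrays, with the lone R2E17 arrays assumed to vary like the others. It was 1.71 ± 0.60 for Fbp1 (SE, limma adjusted p = 0.314), 1.49 ± 0.44 for Pcx (adjusted p = 0.245), 1.25 ± 0.40 for Pck1 (adjusted p = 0.274) and 0.96 ± 0.40 for Slc37a4 (adjusted p = 0.374). For Khk, Ppargc1a, G6pc and Pck2 it was 0.63, 0.63, 0.56 and 0.30. No member passed, while 12 genes did (0.066%). Without adjustment 5 members and 2341 genes had a p under 0.05.

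**Figure D5:**
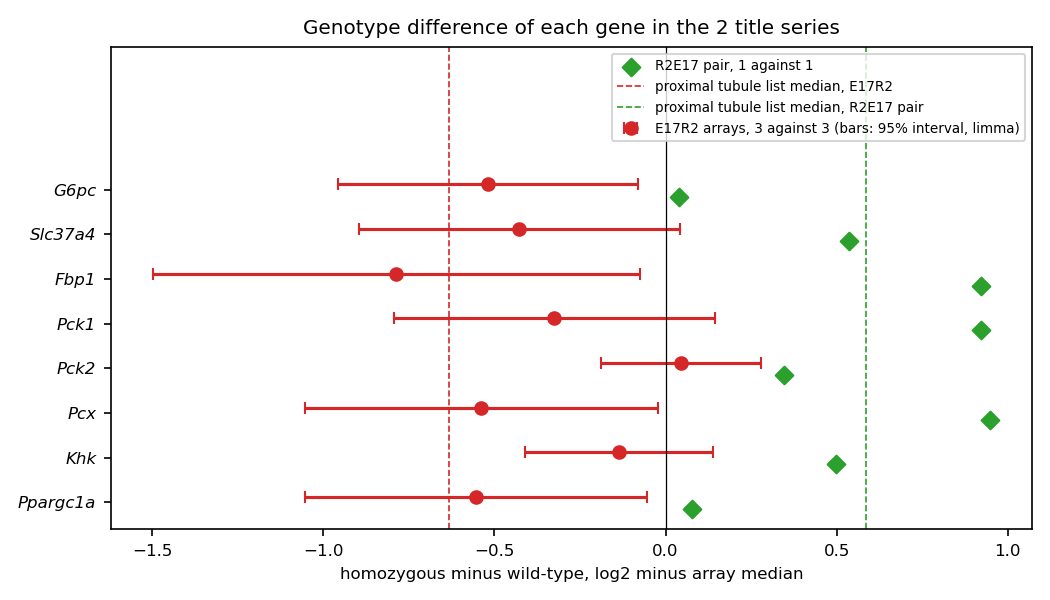
Homozygous minus wild-type difference (x axis, log2 minus array median) of each of the 8 genes (y axis), as red circles with 95% intervals from limma for the E17R2 arrays (3 against 3) and as green diamonds for the R2E17 pair (1 against 1, no error). Dashed lines give the difference of the proximal tubule list's median in each series, -0.63 in E17R2 and 0.59 in the pair.

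The R2NB homozygous arrays were set against the R2E17 homozygous array, which shares their set and genotype label. With 1 array on that side, the fit takes its spread from the R2NB arrays alone (2 residual degrees of freedom) and assumes that the R2E17 array varies like them. No member passed in limma (every adjusted p = 1), while 3 genes did (0.0165%) and 325 had an unadjusted p under 0.05. G6pc averaged 4.12 ± 0.54 on the R2NB arrays (SD, n = 3) and was 3.77 on the R2E17 array, a difference of 0.35 ± 0.39 (SE, 95% interval -0.59 to 1.29). Pck1 averaged 4.24 ± 0.62 on the R2NB arrays and was 4.77 on the R2E17 array, a difference of -0.52 ± 0.44 (95% interval -1.58 to 0.54). The 3 genes that passed, named after their values were seen, were the X-inactivation RNA Xist (-6.13), the Y-linked Kdm5d (4.26) and the ribonuclease gene Ang (3.32). Xist was -0.82, -0.82 and -1.17 on the R2NB arrays and 5.19 on the R2E17 homozygous array, so title and this sex-linked difference cannot be told apart here. In E17R2, 1 homozygous array (replicate 2) and 1 wild-type array (replicate 7) had a low Xist level, 0.14 and 0.11, and the other 4 had 7.17 to 7.36. The differences of the other members ran from -0.34 for Slc37a4 to -0.03 for Ppargc1a. R2NB replicate 4 had the highest G6pc and Khk levels of the 11 arrays, and replicate 5 had the lowest Pck1 level of the set of 5.

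The genes with the profiles most like those of G6pc, Pck1 and Fbp1 were sought by the root mean square distance over the 11 arrays, after each gene was centred on its own mean. Nearest to G6pc was Pck1, at a distance of 0.43, followed by Kap (0.53), Slc22a29 (0.55), Rdh16 (0.59) and Ranbp3l (0.59). Nearest to Pck1 were Acsm1 (0.36), Rdh16 (0.37), G6pc (0.43), Slc22a29 (0.52) and Gpx3 (0.54). Of these, Kap, an androgen-regulated kidney gene of the mouse, had a larger difference between the sets than G6pc, 4.45. Nearest to Fbp1 were Napsa, Aadat, Slc17a1, Cyp2j5 and Slc3a1, at 0.15 to 0.19, and among the members Pcx came closest to Fbp1 (0.39). All of these distances include the difference between the 2 sets.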

How the data were processed

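The deposited values are linear intensity from RMA, as the submitters' processing notes name it, while its version and settings are not given in the sources. All 45101 probe sets were positive, so log2 was computed directly from the deposited intensity. The median of 45037 non-control probe sets was subtracted on each array. Names came from the platform annotation (34945 with 1 symbol, 932 with several, 9160 unnamed), with symbols updated through RefSeq for GRCm38.p6 (34741). A gene's level is that of its probe set with the highest mean, which gave 18193 genes. Gene tests used limma 3.58.1 in R 4.3.3 (lmFit, eBayes, 2-sided, Benjamini-Hochberg over all genes, threshold 0.05) and were tested on simulated data. The number of arrays limits the precision. No adjusted p was computed for the difference in level between the sets, which were taken to be separately normalized. The interaction, the fit with a title series term and the fit on all arrays did use arrays of both sets.

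The rule for named genes took all members with every probe set, Robo2, the 5 nearest profiles of 3 members and, from each gene list, those past the threshold, otherwise up to 4 with the largest difference between the sets, and from other tissues also the 3 with the highest mean. The members and lists were chosen with earlier results of these data known. Alternatives covered quantile normalization over all arrays, uncentred values, the mean of the probe sets, brighter genes only, 1 fit on all arrays, a title series term, trend and robust settings, percentiles, the homozygous or the R2E17 arrays alone and leaving out each array.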

Additional observations from a re-analysis of the deposited data

Results flagged for a closer look

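On the brightest probe set of 3 members, the genotype difference had opposite directions in the title series. All 3 E17R2 homozygous arrays lay below all E17R2 wild-type arrays, and the R2E17 homozygous array lay above the R2E17 wild-type array. For Ppargc1a the direction in the pair depended on the probe set. Its probe sets differed by 0.08, 0.14, 0.04, -0.27 and -0.36 in the pair and by -0.55 to -0.39 in E17R2. The difference between the series (R2E17 minus E17R2, limma interaction term) was 1.71 for Fbp1 (adjusted p = 0.314), 1.49 for Pcx (adjusted p = 0.245) and 0.63 for Ppargc1a (adjusted p = 0.632). None passed the threshold of 0.05. Without E17R2 homozygous replicate 9 the values were 1.34 for Fbp1, 1.23 for Pcx and 0.42 for Ppargc1a, and over every alternative the smallest adjusted p of a member was 0.106. The R2E17 series has 1 array of each genotype. Its wild-type array has the largest 3' minus 5' differences for Gapdh and Actb, and muscle genes were higher on its homozygous array (median difference 4.22). Their part in these values was not tested.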

How the results depend on the processing

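No member passed the threshold in any limma comparison under any alternative, with adjusted p-values of 0.694 or more in E17R2, 0.106 or more in the interaction and 0.444 or more for R2NB. Members higher in the set of 5 numbered 4 to 5 when each array was left out, and 3 (G6pc, Pck1 and Pcx) on the percentile scale with a limit of 10 points. Among all 18193 genes, 444 to 545 were higher when each array was left out and 650 on the percentile scale. With each array left out, the difference between the sets was 3.83 to 4.11 for G6pc and 3.56 to 3.87 for Pck1. Genes higher numbered 251 when only the brighter 9096 genes were used, and genes lower numbered 34 there and 251 after quantile normalization. Genes passing in E17R2 numbered 0 to 3 with each array left out (3 without wild-type replicate 7) and 6 without the 3 arrays with hepatocyte transcripts, which was chosen after seeing the data. The interaction called 4 genes after quantile normalization, 5 among brighter genes, 2 in 1 fit on all arrays and 3 to 11 with arrays left out. R2NB against R2E17 called 0 genes after quantile normalization, 1 with the mean of the probe sets, 5 among brighter genes, 10 with trend and robust settings and 0 to 141 with arrays left out. The cause was not tested. Directions turned for Khk in E17R2 with a title series term (0.0232), for Pck2 in E17R2 with the mean of the probe sets (-0.0317) and with arrays left out (-0.0096 to 0.1002, the lowest without homozygous replicate 9), and for Ppargc1a in R2NB after quantile normalization (0.0199) and with arrays left out (-0.0869 to 0.0337, the highest without R2NB replicate 4). No paired analysis was possible because no compared groups share 2 replicate numbers.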
